A study of Rattus norvegicus with 6 samples.

Results

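The mitosis genes described here are 40 rat genes that drive or carry out nuclear and cell division, chosen by name from a list of symbols, with earlier results of these data known. All 40 were found among the 17525 genes of the deposited table, and each passed the minimum of 30 reads over the libraries that the test below required. Messenger RNA was measured by sequencing in primary granulosa cells, the follicle cells that nurse the oocyte, isolated from ovaries of SD rats aged 21 days. All rats had received 60 IU of PMSG, an equine gonadotropin that makes follicles grow, 48 h before the ovaries were taken. The libraries used here are 3 that the titles place in a group called ATR. The other 3 libraries, called Control, are not analysed here, and nothing below measures what an exposure did. Atrazine, a herbicide, is in the title of the series, but the labels leave ATR unexplained, and no source used here states a dose or a duration, or if the exposure was of rats or of cells in culture. The labels are also silent on whether each library is its own animal or culture. P-values therefore measure only the spread between these libraries, which may be technical.

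A cell enters mitosis when the kinase Cdk1, bound to a B-type cyclin, becomes active. The chromosomes then condense, attach to the spindle through their kinetochores, and are pulled apart once the anaphase-promoting complex marks cyclin B and securin for destruction. Most genes of this programme are silent in resting cells and are switched on together late in the cell cycle, by the B-Myb, MuvB and FoxM1 proteins. The promoters are known for a short element called the CHR, read by MuvB, and for CCAAT boxes, read by the factor NF-Y. Granulosa cells divide rapidly in growing follicles and leave the cycle when they luteinize.

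The libraries held 18677212 to 19170552 reads assigned to genes. Markers of the granulosa cell were present, 10 of 12 reaching a mean of 1 TPM (a level scaled for transcript length and library size). Cyp19a1 and Amh stayed below 1 TPM. The summed level of these 12 markers was 3240 TPM in ATR 1, 2972 in ATR 2 and 2842 in ATR 3. Lists for other cells of the ovary differed widely, with sums of 16334 to 17677 TPM for 6 smooth muscle genes, 2211 to 2332 for 9 genes of surface epithelium, 613 to 645 for 7 stromal genes and 94.2 to 119 for 6 leukocyte genes. Endothelial genes summed to at most 4.53 TPM and oocyte genes to at most 1.52 TPM, and no theca gene other than Star reached 1 TPM. In bulk RNA, a smaller number of dividing cells and less message in each of them cannot be told apart.

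Mitosis genes were expressed at a moderate level and in every library. Each of the 40 had a mean above 1 TPM, a limit that 71.4% of all 17525 genes reached. Of the 40, 27 reached 10 TPM, against 50.2% of all genes, and none reached 100 TPM, which 10.7% of all genes did. Their median was 14.05 TPM, and the median over all genes was 10.1 TPM. The order ran from Cdk1 at 74.7 ± 9.83 TPM (SD, n = 3), higher than 85.7% of all genes, to Melk at 4.87 ± 0.127 TPM. Together they made up 0.0722%, 0.0641% and 0.0829% of all TPM in ATR 1, ATR 2 and ATR 3.

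**Figure D1:**
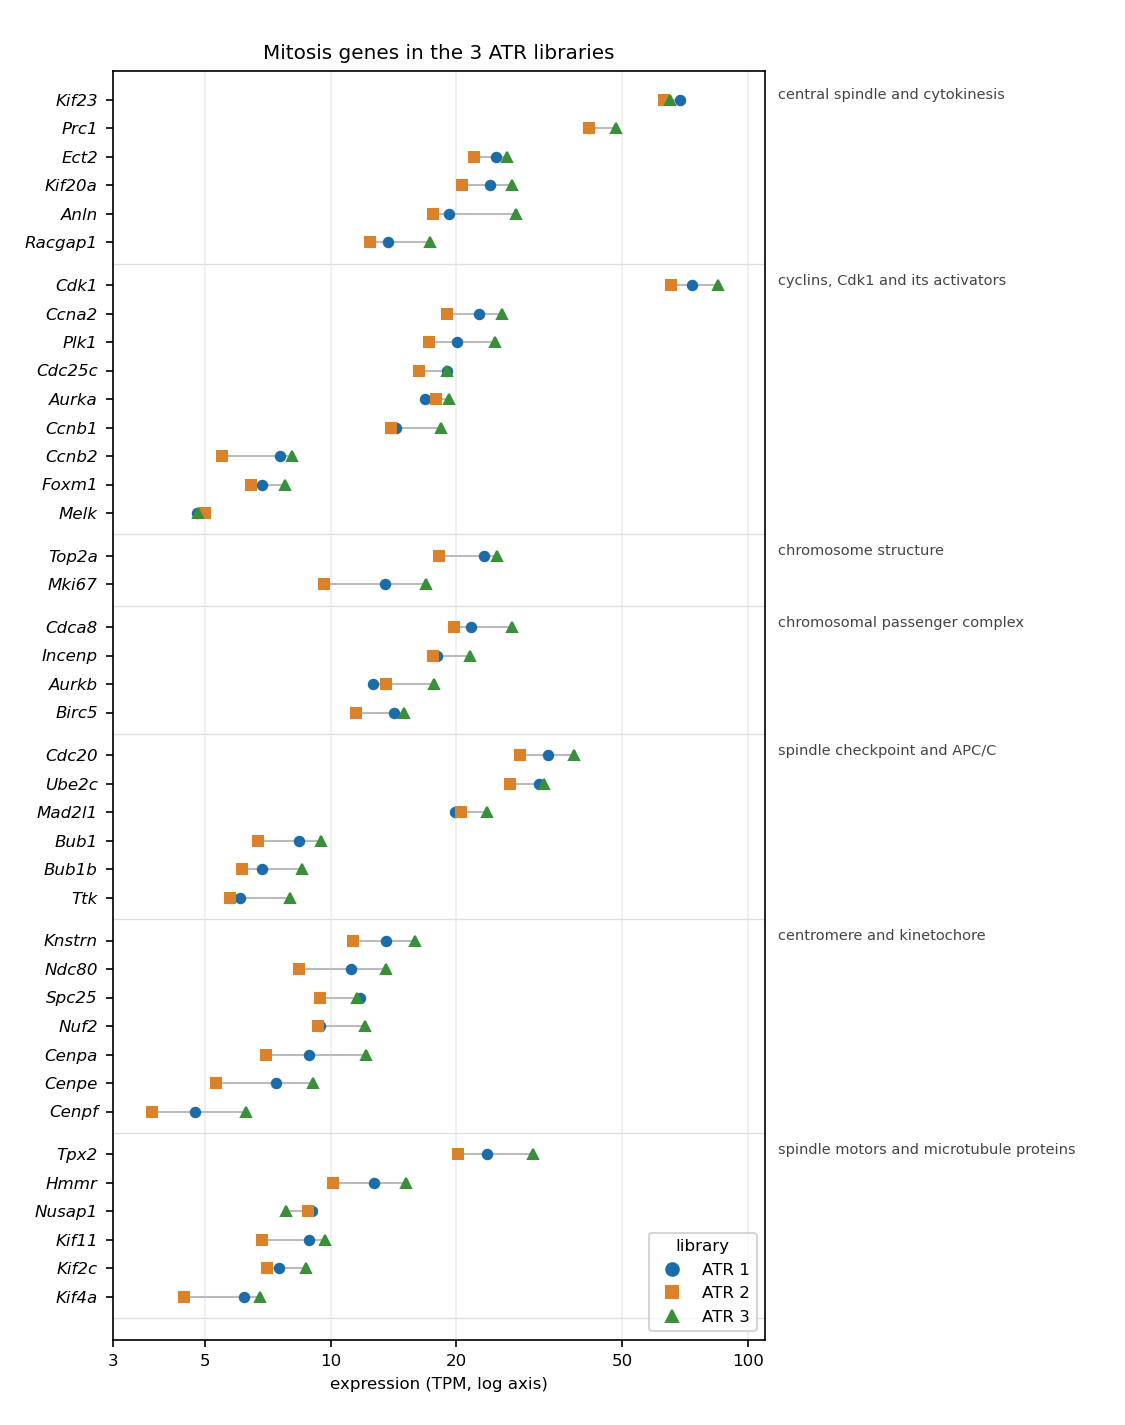
Expression in TPM (log axis) of the 40 mitosis genes, grouped by role, with 1 symbol for each of the 3 ATR libraries and a line from the lowest to the highest. ATR 3 (triangles) is the highest library for 35 of the 40 genes on this scale, and Cdk1 and Kif23 stand above the rest.

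The promoters of these genes carried the known elements of the mitotic programme at a high rate. RefSeq promoter windows of the rat build GRCr8, from 250 bases before the listed start to 50 after it, were at hand for 33 of the 40 genes. The search covered both strands for TTTGAA (the commonest form of the CHR) and CCAAT. A CHR match lay in 25 of the 33 windows (75.8%), against 11.5% of 9896 windows of genes at 1 TPM or more and 18.1% of all 27457 windows. With the bases before the start alone, the CHR count was 16 of 33 (48.5%), against 10.1% of expressed genes. A CCAAT box lay in 23 (69.7%), against 38.1% of expressed genes and 37.7% of all. Both lay in 19 windows (57.6%), against 4.72% of expressed genes. In 2 of the 33 windows, those of Mki67 and Cdca8, a CHR match and a CCAAT box overlapped. A match shows that the letters are there, and not that a factor binds. The following 205 bases before the start were chosen to show the range, from promoters with several elements to 1 without any. The strand printed is that of the gene, 5′ to 3′, ending at the base before the start, and capitals mark each match to either motif on either strand.
Ccnb2: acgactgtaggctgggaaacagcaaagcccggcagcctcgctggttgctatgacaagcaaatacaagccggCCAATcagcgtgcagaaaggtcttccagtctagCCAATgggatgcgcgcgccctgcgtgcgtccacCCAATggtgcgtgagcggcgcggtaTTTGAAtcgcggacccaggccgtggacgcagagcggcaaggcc
Cdc20: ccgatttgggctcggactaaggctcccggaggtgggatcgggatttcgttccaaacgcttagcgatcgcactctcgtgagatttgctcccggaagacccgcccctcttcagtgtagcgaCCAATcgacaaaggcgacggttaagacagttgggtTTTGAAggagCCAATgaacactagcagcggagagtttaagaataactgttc
Cdk1: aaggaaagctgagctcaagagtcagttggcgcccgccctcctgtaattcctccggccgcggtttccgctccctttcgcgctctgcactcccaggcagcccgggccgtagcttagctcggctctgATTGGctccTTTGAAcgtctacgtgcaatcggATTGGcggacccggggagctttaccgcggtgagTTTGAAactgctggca
Top2a: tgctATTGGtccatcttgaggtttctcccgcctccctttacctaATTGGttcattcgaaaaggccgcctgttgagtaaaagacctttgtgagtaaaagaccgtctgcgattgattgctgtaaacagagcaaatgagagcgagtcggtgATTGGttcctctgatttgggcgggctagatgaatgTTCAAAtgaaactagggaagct
Ccnb1: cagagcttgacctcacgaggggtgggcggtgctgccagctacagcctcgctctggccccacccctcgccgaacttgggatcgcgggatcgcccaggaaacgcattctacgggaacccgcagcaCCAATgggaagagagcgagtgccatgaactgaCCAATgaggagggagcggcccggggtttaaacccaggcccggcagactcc
Anln: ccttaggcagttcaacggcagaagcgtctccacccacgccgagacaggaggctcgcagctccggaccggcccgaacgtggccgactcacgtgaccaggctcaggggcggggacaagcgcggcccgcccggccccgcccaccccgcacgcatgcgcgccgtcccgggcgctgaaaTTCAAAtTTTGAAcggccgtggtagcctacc
Melk: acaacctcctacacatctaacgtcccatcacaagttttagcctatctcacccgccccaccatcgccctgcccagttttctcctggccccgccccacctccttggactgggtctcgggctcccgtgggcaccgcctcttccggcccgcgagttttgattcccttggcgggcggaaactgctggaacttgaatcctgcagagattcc

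Ccnb2, which encodes cyclin B2, has boxes followed by a CHR (chr8:79981659-79981863, minus strand): CCAAT boxes begin 134, 101 and 68 bases before the start, and a CHR follows 43 bases before it. The windows of Cdk1 (chr20:19265088-19265292, plus strand) and Top2a (chr10:84473094-84473298, minus strand) hold the boxes on the other strand, as ATTGG, with the last CHR match 16 and 22 bases before the start. Cdc20 (chr5:137255800-137256004, minus strand) has its CHR between 2 boxes. Ccnb1 (chr2:33655226-33655430, minus strand) has 2 boxes and no TTTGAA. Anln (chr8:29197514-29197718, minus strand) has 2 CHR matches on opposite strands, separated by a single base, and no box. Melk (chr5:63335946-63336150, plus strand) has neither motif. Across the 25 windows with a CHR, the match nearest the end of the window had a median position 16 bases before the start, and in 24 of them it lay between 100 bases before and 50 after. Boxes on 1 strand spaced 25 to 45 bases apart, a spacing chosen after the windows had been seen, occurred in 12 of the 33 windows (36.4%), against 5.01% of expressed genes.

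**Figure D2:**
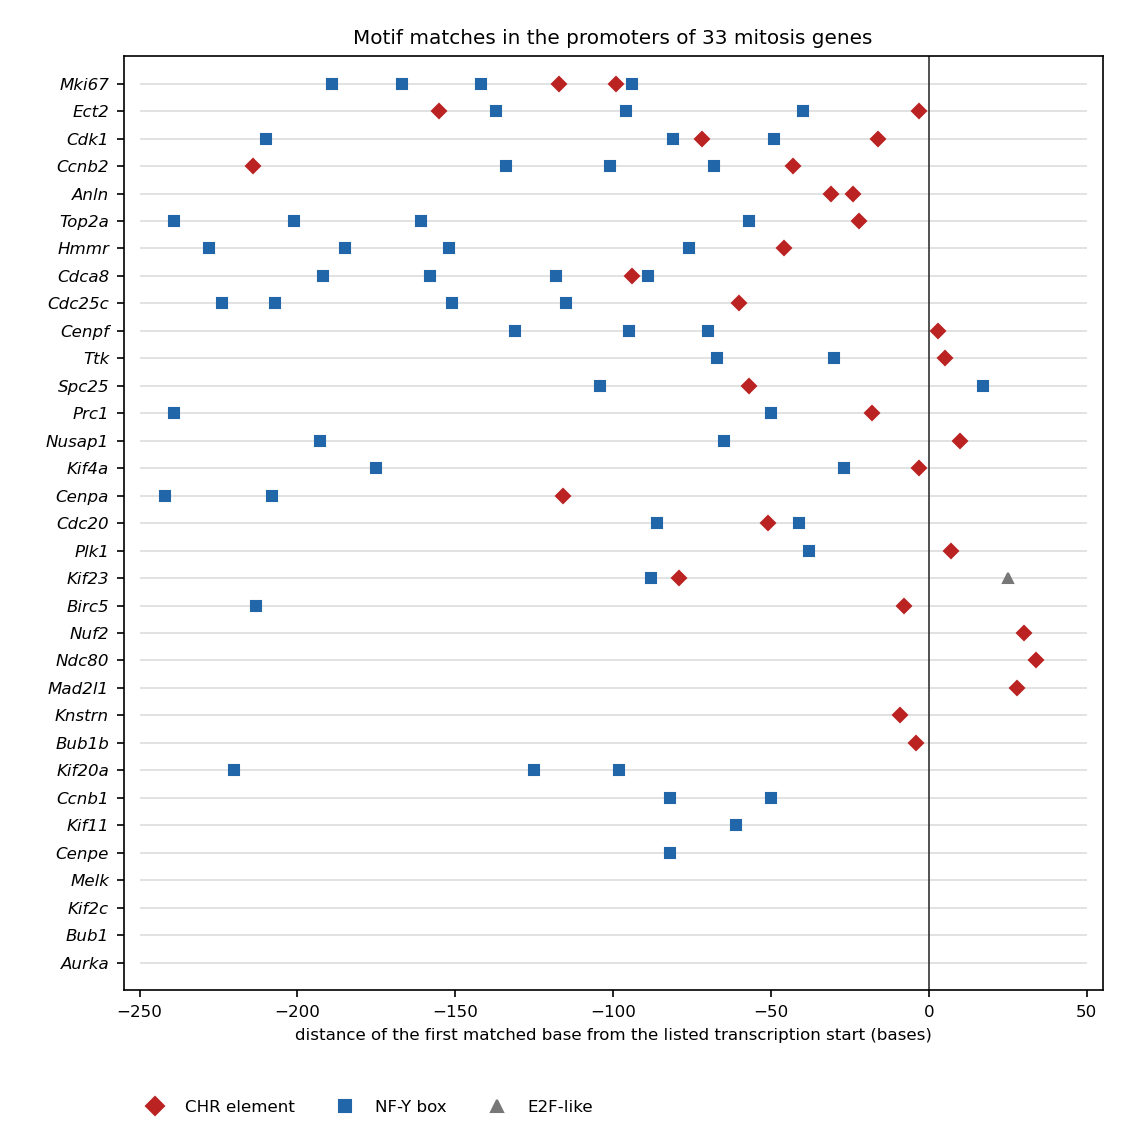
Positions of CHR (diamonds), CCAAT (NF-Y box, squares) and E2F-like (triangle) matches in the promoter windows of 33 mitosis genes, as the distance in bases of the first matched base from the listed start. CHR matches lie mostly within 100 bases of the start, with the boxes further upstream, and 4 genes (Aurka, Bub1, Kif2c and Melk) have neither.

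Genes of DNA replication, which peak earlier in the cycle, had another profile. CHR matches were found in 2 of their 35 windows (5.71%), whereas TTCCCGC, a core of E2F sites searched on both strands, was found in 12 (34.3%). The same E2F-like core lay in 1 of the 33 mitosis windows (3.03%), that of Kif23, and in 8.52% of expressed genes. CCAAT boxes were shared, at 62.9% of replication windows. Of 65 windows for other mitosis genes, from a list given below, 34 (52.3%) held a CHR and 40 (61.5%) a box. These are descriptions of sequence, and other spellings of the elements were not searched.

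**Figure D3:**
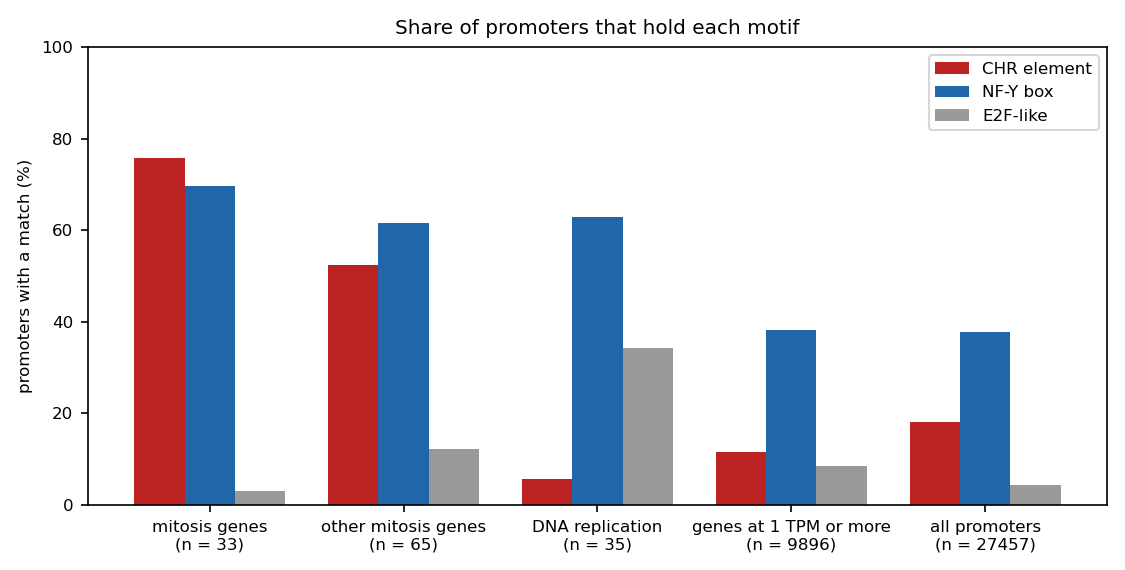
Share of promoter windows (%) that hold a CHR, an NF-Y box (CCAAT) or an E2F-like match, for the mitosis genes, other mitosis genes, DNA replication genes, genes at 1 TPM or more and all windows. CHR matches stand at 75.8% of mitosis windows (48.5% with the bases before the start alone) and 5.71% of replication windows.

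Among the kinases and cyclins that open mitosis, Cdk1 was by far the most abundant. Its level was 73.47 TPM in ATR 1, 65.48 in ATR 2 and 85.03 in ATR 3, and levels are given in this order of libraries from here on. Its partner for the last part of S phase and for mitotic entry, Ccna2 (cyclin A2), stood at 22.63, 19.03 and 25.78 TPM. Both followed the same order of libraries, so the ratio of Cdk1 to Ccna2 kept between 3.25 and 3.44. Ccnb1, the main mitotic cyclin, stood at 14.35, 13.94 and 18.36 TPM. Ccnb2, a cyclin of the Golgi and cytoplasm, was lower at 7.58, 5.48 and 8.07 TPM. Ccnb1 exceeded Ccnb2 by 1.89 to 2.54 times, although the reads of both are estimates that are not whole numbers, as are those of Foxm1, Anln and Incenp, so reads may have been shared with similar genes. Cdk1, Ccna2 and Ccnb1 passed a chi-square test of spread between libraries, described below with its background, and were highest in ATR 3. Ccnb2, from 71 to 107 reads, did not pass the test (chi-square test, adjusted p = 0.103).

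The activators of Cdk1 lay below it in level and varied less evenly. Plk1, a kinase that triggers entry and later steps, stood at 20.04, 17.22 and 24.81 TPM. The phosphatase gene Cdc25c stood at 18.99, 16.26 and 18.96 TPM, and Aurka, the kinase of the spindle poles, at 16.81, 17.87 and 19.21 TPM. Plk1 passed the test, and Cdc25c and Aurka did not. Foxm1, the transcription factor of the programme, was lower at 6.86, 6.44 and 7.76 TPM. Melk, a kinase expressed in dividing cells, was level at 4.77, 5.01 and 4.82 TPM.

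The chromosomal passenger complex corrects faulty attachments and later guides cytokinesis. Its 4 genes had similar levels, with means from 13.6 ± 1.84 TPM for Birc5 (survivin) to 22.9 ± 3.89 TPM for Cdca8 (borealin). The kinase Aurkb stood at 12.62, 13.56 and 17.70 TPM and the scaffold Incenp at 17.99, 17.64 and 21.62 TPM. Incenp exceeded Aurkb by 1.22 to 1.43 times. All 4 were highest in ATR 3 by scaled reads. Aurkb, Incenp and Cdca8 passed the test, while Birc5, from 87 to 116 reads, did not.

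Genes of the spindle checkpoint fell into a higher and a lower set. Cdc20, the activator of the anaphase-promoting complex, stood at 33.21, 28.52 and 38.30 TPM, and Ube2c, an enzyme that hands ubiquitin to that complex, at 31.63, 26.85 and 32.45 TPM. Mad2l1 encodes the checkpoint protein that blocks Cdc20, and it stood at 19.88, 20.50 and 23.75 TPM. The checkpoint kinases were lower: Bub1 at 8.40, 6.68 and 9.49 TPM, Bub1b at 6.84, 6.12 and 8.52 TPM, and Ttk at 6.05, 5.74 and 7.99 TPM. Bub1 and Bub1b kept close together, at a ratio of 1.09 to 1.23, and Ttk was 0.280 to 0.336 of Mad2l1. All 6 were highest in ATR 3 by scaled reads, and Cdc20, Bub1, Bub1b and Ttk passed the test.

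Centromere and kinetochore genes were low, with a median of 10.3 TPM, and their median coefficient of variation between libraries, 23.4%, was the widest of the 7 roles. The Ndc80 complex binds microtubules at the kinetochore. Its members Ndc80, Nuf2 and Spc25 had near equal means of 11.1 ± 2.59, 10.3 ± 1.57 and 10.9 ± 1.29 TPM, closer to each other than the spread between libraries. Cenpa, the histone variant that marks the centromere, stood at 8.89, 7.01 and 12.17 TPM. The motor Cenpe, which brings chromosomes to the spindle equator, stood at 7.40, 5.30 and 9.06 TPM, and the large kinetochore protein Cenpf at 4.74, 3.73 and 6.27 TPM. Knstrn, a spindle and kinetochore adaptor, stood at 13.56, 11.30 and 15.95 TPM. In each of these 4 genes ATR 3 was highest and ATR 2 lowest, with ATR 1 between. Ndc80 itself stood at 11.19, 8.40 and 13.57 TPM. For this gene the scale matters: the TPM of ATR 3 was 1.62 times that of ATR 2, but its reads differed by 1.40 times, because the number of reads per TPM, which follows transcript length, varied by 15.6% between libraries. It varied by over 5% for 5 of the 40 genes, the others being Ccna2, Cenpa, Kif2c and Incenp. Among all genes with a mean of at least 5 TPM, it did so for 882 of 10252.

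Spindle motors and microtubule proteins were led by Tpx2, which activates Aurka on the spindle, at 23.75, 20.17 and 30.53 TPM. Hmmr, a spindle protein that is also a hyaluronan receptor, stood at 12.70, 10.14 and 15.20 TPM. The motor Kif11, which pushes the spindle poles apart, stood at 8.89, 6.83 and 9.71 TPM, and the chromosome motor Kif4a at 6.21, 4.46 and 6.77 TPM. These 4 passed the test and were highest in ATR 3. Kif2c, which takes microtubules apart at centromeres, had a mean of 7.77 ± 0.868 TPM. Nusap1, a protein that bundles spindle microtubules, went the other way at 9.03, 8.82 and 7.83 TPM, a difference that did not pass the test (chi-square test, adjusted p = 0.736).

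Genes of the central spindle and cytokinesis had the highest median of the larger roles, at 24.2 TPM. Kif23, the motor subunit of centralspindlin, stood at 68.81, 63.02 and 64.94 TPM, second only to Cdk1. Its partner Racgap1 was much lower at 13.70, 12.44 and 17.35 TPM, so that Kif23 exceeded Racgap1 by 5.02 times in ATR 1, 5.07 in ATR 2 and 3.74 in ATR 3. The bundling protein Prc1 stood at 41.57, 41.54 and 48.30 TPM, between 6.69 and 9.31 times the level of Kif4a, the motor it recruits to the midzone. Ect2, the exchange factor that switches on RhoA at the cleavage site, stood at 24.95, 22.07 and 26.47 TPM, and Kif20a, which carries passenger proteins there, at 24.16, 20.60 and 27.23 TPM. Anln (anillin, the scaffold of the contractile ring) stood at 19.23, 17.55 and 27.87 TPM. Of these 6 genes Kif23 alone did not pass the test, although it had more reads than any other member (adjusted p = 0.268, chi-square test).

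Of the remaining genes, Mki67 encodes the coat protein of mitotic chromosomes that pathologists stain as Ki-67, and Top2a the topoisomerase that untangles them. The level of Mki67 was 13.53 TPM in ATR 1, 9.63 in ATR 2 and 16.97 in ATR 3. Top2a stood at 23.37, 18.19 and 25.07 TPM. ATR 3 was highest and ATR 2 lowest for each. In both genes the 95% interval of the read ratio excluded 1 for every pair of libraries. Mki67 reads in ATR 3 exceeded those in ATR 2 by 1.77 times (95% interval 1.63 to 1.93), and in ATR 1 they did so by 1.38 times (1.26 to 1.50).

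The libraries were compared gene by gene with a chi-square test of reads against TMM-scaled library sizes, a test that covers counting error alone and compares libraries, not conditions. At a Benjamini-Hochberg adjusted p under 0.05 over all genes tested, 27 of the 40 mitosis genes passed, against 23.2% of 13309 genes tested. Among the 8480 genes with as many reads as the mitosis genes, 19.0% passed. All 27 were highest in ATR 3, so 27 of the 40 showed both, against 7.51% of tested genes and 5.94% of those in the read range. Counting genes that did not pass as well, by scaled reads, 36 of 40 were highest in ATR 3, against 32.0% of tested genes. Lowest in ATR 2 were 32 of 40, against 33.5%. Earlier results of these data had already shown the direction towards ATR 3, so these counts describe it and do not support it. The smallest adjusted p-values of the chi-square test were 4.32e-41 for Mki67, 1.28e-27 for Anln and 7.31e-15 for Cenpe. The order ATR 3, ATR 1, ATR 2 held for 30 of 40, a count for which no share over all genes was computed. The exceptions to ATR 3 being highest were Kif23, Cdc25c and Nusap1, highest in ATR 1, and Melk, highest in ATR 2. Without ATR 3, 6 of the 40 passed (15%), a share no higher than the 17.3% of all genes tested in that fit. Without ATR 2 the number was 19, against 14.6% of all genes, and without ATR 1 it was 27, against 11.9%. The median coefficient of variation between libraries was 15.9% for the mitosis genes and 6.16% for all genes at 1 TPM or more.

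ATR 3 and ATR 2 were chosen as a pair because earlier results of these data set them furthest apart for cell cycle genes. The ratios below therefore describe the size of a known difference and are no separate support for it. Reads of the mitosis genes were a median of 1.34 times higher in ATR 3 than in ATR 2, with the middle of the list between 1.24 and 1.44. The median was 1.20 for ATR 3 over ATR 1, and 1.14 for ATR 1 over ATR 2. For all genes tested these medians were 0.999, 1.00 and 0.999. With exact 95% intervals for counting error, 31 of the 40 had a ratio of ATR 3 to ATR 2 above 1 and none below it. Of genes in the read range of the members, 9.58% had an interval above 1 and 9.08% one below it. Of the 40, 35 lay in the top 10.0% of those 8480 genes by this ratio.

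**Figure D4:**
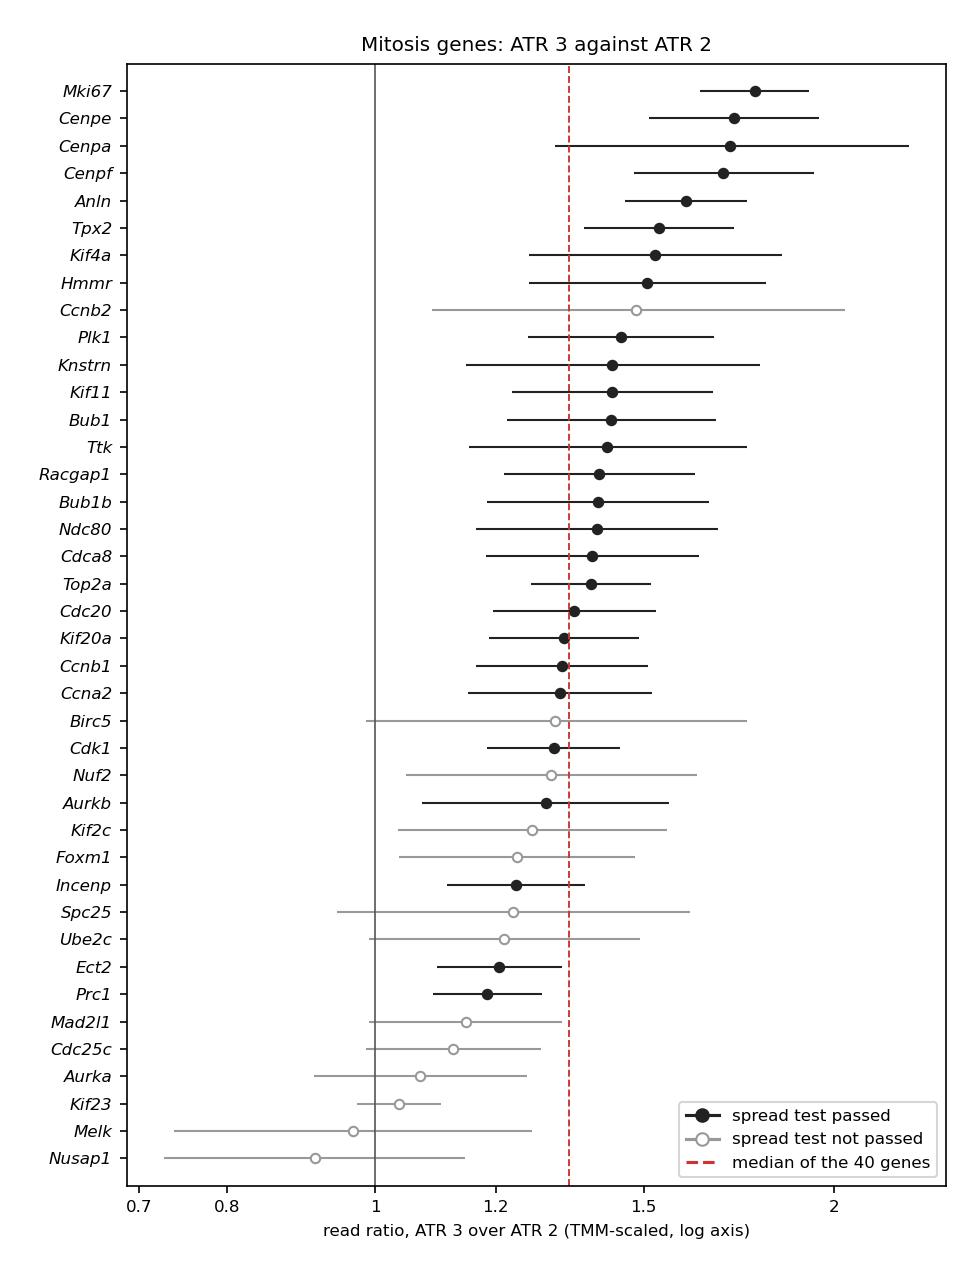
Ratio of TMM-scaled reads in ATR 3 to those in ATR 2 (log axis) for each mitosis gene, with its exact 95% interval for counting error. Filled symbols passed the spread test, and the dashed line is the list's median of 1.34, with Mki67 at the top (1.77) and Nusap1 at the bottom (0.913).

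The mitosis genes did not all differ to the same degree. The interval of ATR 3 over ATR 2 lay above the list's median of 1.34 for 5 genes, namely Mki67, Cenpe, Cenpf, Anln and Tpx2. Cenpe had a ratio of 1.72 (1.51 to 1.96), Cenpf one of 1.69 (1.48 to 1.94) and Anln one of 1.60 (1.46 to 1.75). The interval lay below the median for 8 genes, which were Kif23, Prc1, Ect2, Aurka, Cdc25c, Mad2l1, Nusap1 and Melk. Kif23 had a ratio of 1.04 (0.973 to 1.10) and Prc1 one of 1.18 (1.09 to 1.29). Several genes of cytokinesis are thus in the lower set while Anln is in the upper. The genes named here were singled out after their values were seen.

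The longest transcripts had the widest difference, without a steady trend over the shorter ones. Mki67, Cenpe and Cenpf are the 3 members in the longest 10% of transcripts, by reads per TPM, and their median log2 ratio of ATR 3 to ATR 2 was 0.78. All 1271 genes of that class had a median of 0.03, and the shortest 10% had one of -0.01. Members in the shortest class, Ube2c and Birc5, had a median log2 ratio of 0.34, and in the classes between, the members' medians ran from 0.29 to 0.52 in no order of length. For ATR 3 over ATR 1, the median of all genes ran the other way, from 0.06 in the shortest class to -0.03 in the longest. Across the 40 genes, which share the same libraries, Pearson's r between log2 reads per TPM and the log2 ratio was 0.36. The part of length in the members' differences was not tested.

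Promoter content was set beside the same ratio. The 19 genes with both motifs had a median ratio of ATR 3 to ATR 2 of 1.39, the 6 with a CHR alone 1.40, the 4 with a box alone 1.38 and the 4 with neither 1.17. The ranges overlapped, since genes with both motifs ran from 0.913 (Nusap1) to 1.77 (Mki67), and Bub1, with neither, stood at 1.43. Of the genes with neither, Melk had the lowest ratio, 0.967. A relation between motif content and the ratio was not tested.

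Other genes of mitosis that are not among the 40 were also mostly highest in ATR 3. Of 76 listed, 74 were measured, and 38 of these passed the test, against 23.2% of all genes tested. Of the 74, 36 both passed and were highest in ATR 3, against 7.51% of all genes tested. The median ratio of ATR 3 to ATR 2 over the 74 was 1.22. Of the 74, 64 were highest in ATR 3, against 32.0% of all genes, and 51 lowest in ATR 2, against 33.5%. The most abundant were Tubb4b (a tubulin) at 405 ± 11.2 TPM, Zwint (a kinetochore protein) at 136 ± 4.98, Stmn1 (stathmin) at 95.2 ± 10.6, Bub3 (a checkpoint protein) at 86.3 ± 3.02 and Gtse1 at 65.1 ± 1.22 TPM. Widest between libraries were Nsl1, Cep55 and Cenpn, each highest in ATR 3.

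DNA replication genes were mostly highest in ATR 3, and ATR 1 and ATR 2 were about equally low. All 45 were measured, with a median of 16.6 TPM, and 38 were highest in ATR 3, against 32.0% of all genes tested. The test was passed by 16, against 23.2% of all genes. All 16 were highest in ATR 3, so 16 of the 45 showed both, against 7.51% of all genes tested. The lowest library was ATR 1 for 21 of the 45 and ATR 2 for 21. The median ratio of ATR 1 to ATR 2 was 0.997, against 1.14 for the mitosis genes. The difference between these lists was not tested. Pcna led at 88.95 ± 8.77 TPM, followed by Rrm2 at 77.4 ± 9.97, Dut at 59.9 ± 3.33, Tyms at 57.9 ± 2.11 and Rpa1 at 53.3 ± 1.95 TPM. Mcm10 and Gins4 were among those with the widest log2 range.

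The regulators of the programme and the brakes on the cycle are given by the same counts. A list of 15 genes held subunits of the DREAM and MuvB complexes and B-Myb, which repress or activate mitotic promoters. It also held Rb1, E2f7 and E2f8, which are not subunits of these complexes. Of the 15, 3 passed (Mybl2, Rbl1 and E2f8), a share near the 23.2% of all genes tested. Highest in ATR 3 were 8 of the 15, against 32.0% of all genes, with a median ratio of ATR 3 to ATR 2 of 1.07. Rbbp4 led at 165 ± 5.00 TPM, then Tfdp1, E2f4, Lin37 and Rb1, while E2f8, Rbl1 and E2f7 spread most. Of 16 CDK inhibitors and arrest genes, 7 passed, against 23.2% of all genes tested. Of the 16, 2 both passed and were highest in ATR 3, against 7.51% of tested genes. The median ratio over the 16 was 0.991. Some that passed have many reads, such as Cdkn1a at 16469 to 17709, and at such depth the test passes small differences. Cdkn1a (the inhibitor p21) stood at 1011 ± 47.9 TPM, with 1018 TPM in ATR 1, 1055 in ATR 2 and 960 in ATR 3, the reverse order of the last 2 libraries from most mitosis genes. Ccng1, Mdm2 and Cdkn2b were also among the most abundant. Cdkn2a, Cdkn2c and Cdkn1b had the widest log2 range, the first 2 highest in ATR 3.

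**Figure D5:**
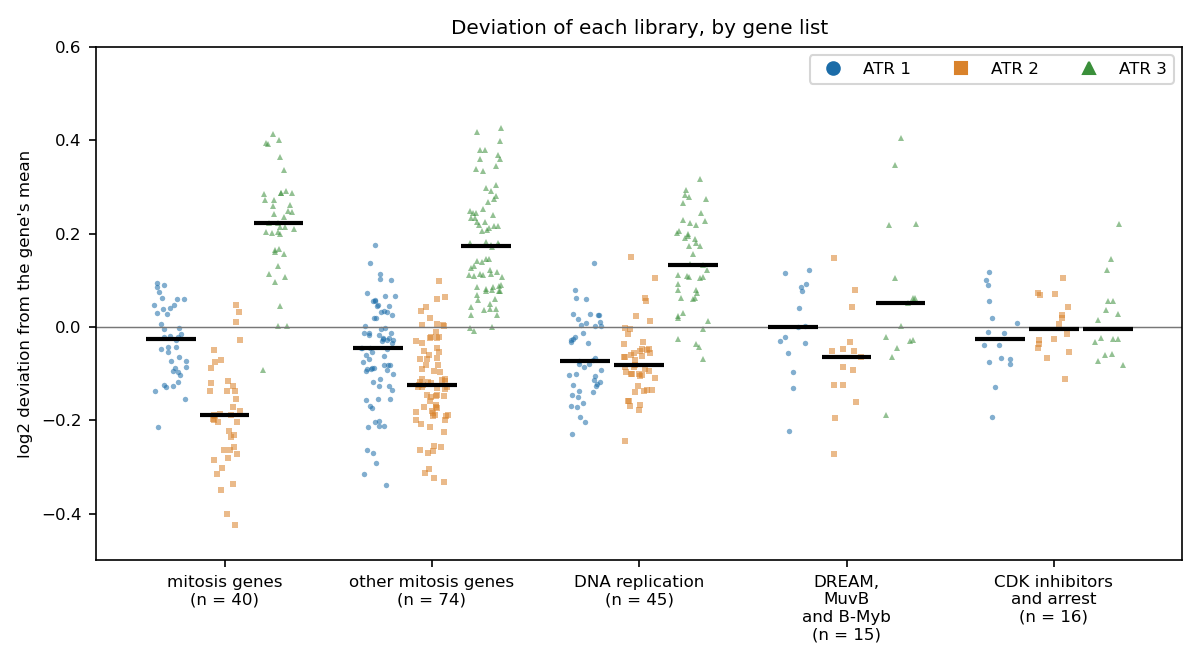
Log2 deviation of each library from a gene's mean over the 3 libraries, on the log2(CPM + 0.5) scale, with 1 point for each gene and library and a bar at each median. The mitosis genes have medians of -0.03 in ATR 1, -0.19 in ATR 2 and 0.22 in ATR 3, while CDK inhibitors and arrest genes lie near 0 in each.

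Summed marker levels of other cell types were set beside this difference. From ATR 2 to ATR 3 the summed level went from 2972 to 2842 TPM for granulosa markers, from 645 to 643 for stromal genes, from 119 to 117 for leukocyte genes and from 2211 to 2279 for surface epithelium. It went from 16486 to 16334 TPM for smooth muscle genes, from 105 to 111 for theca genes and from 465 to 457 for red cell genes. None of 10 tested granulosa markers was highest in ATR 3, against 32.0% of all genes tested. Single stromal genes differed more than their sum (Thy1 at 23.23, 104.14 and 82.65 TPM, in the same order of libraries). The granulosa sum was mostly the gene Gja1, which held 1863 of its 2972 TPM in ATR 2 and 1821 of its 2842 in ATR 3. The part of cell composition in the mitosis difference was not tested.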

How the data were processed

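Expression was measured by poly(A) RNA sequencing with paired reads of 150 bases, per the labels' protocols. The authors deposited a TPM value and an estimated count of reads per gene and library, per the file headers. Tools listed in the submitters' processing notes are StringTie 2.1.5, HISAT2 2.2.1 and fastp 0.20.1, and builds listed there are Rnor_6.0 and GRCm38, all without roles. No source used here states how reads were divided among genes.

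Members were matched by symbol, and all 40 matched a rat RefSeq gene by identifier. Estimated counts were rounded and scaled by TMM (edgeR 4.0.16, R 4.3.3). Genes with at least 30 reads in all entered a chi-square test with Benjamini-Hochberg adjustment over all 13309. The test was first tried on simulated counts that held counting error alone, so that trial does not cover variation beyond it. Ratios carry exact (Clopper-Pearson) 95% intervals. Reads have no molecular identifiers, so intervals and tests cover counting error only. The common coefficient of variation beyond counting error was 8.24% (edgeR). DESeq2 1.42.0 size factors were an alternative. Where a gene has several listed starts, the first promoter was used. Promoter windows and their coordinates are those of RefSeq on GRCr8, which is not the build of the counts. Python 3.11.15, scipy 1.17.1, pandas 2.3.3, numpy 2.4.6 and matplotlib 3.10.9 were used.

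All 40 members are named. Of each related list, the 5 most abundant genes and the 3 with the widest log2 range at 1 TPM or more are named, except for items that are not reported here. Members and lists were chosen with earlier results of these data known, and the promoter motifs after the data had been seen. The planned ATR against Control contrast was not run, since Control libraries are not analysed here.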

Additional observations from a re-analysis of the deposited data

How the results depend on the processing

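No paired analysis was possible because every library analysed here carries 1 group label, ATR. No fit of ATR against Control was run, so its other settings were not run either. The count of 27 members that passed the spread test ran from 6 to 27 when single libraries were dropped, 6 being the value without ATR 3 and 19 that without ATR 2. The count was 24 of 35 with whole counts alone, and 27 with DESeq2 size factors, with library totals and with either other minimum of reads. Members at the level limit numbered 27 at 10 TPM, 38 at 5 TPM and 14 at 20 TPM. The members' summed share was 0.0731% of TPM and 0.0968% of reads, which weight long transcripts. The median ratio of ATR 3 to ATR 2 ran from 1.33 to 1.35 under other scalings and on TPM. None of 120 single-gene ratios under these settings moved to the other side of 1. Under the other scalings this was nearly fixed beforehand, because they multiply every gene's ratio by the same factor, close to 1. Only TPM could move genes singly, as for Ndc80, from 1.40 to 1.62, and it rests on the same reads. The count of 120 is therefore no test of single ratios. With bases before the start alone, a choice made after seeing the data, 16 of 33 promoters held a CHR (48.5%, against 10.1% of expressed genes), in place of 25, and 23 still held a CCAAT box. Depth limits the rarest members: Birc5, at 87 to 116 reads, had a ratio of 1.31 with an interval of 0.986 to 1.75.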
